A study of Mus musculus with 11 samples.

Results

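The 6 genes described here encode the inhibitors of NF-κB and their relative Bcl3: Nfkbia, Nfkbib, Nfkbie, Nfkbid, Nfkbiz and Bcl3. They were chosen by name, with earlier results of these data known, and each had 1 entry among the 21957 genes of the count table. Their mRNA and their ribosome footprints, the mRNA fragments that a translating ribosome protects from nuclease, were counted in OT1 cells, mouse CD8 T cells whose transgenic receptor recognises a peptide of ovalbumin. All cells were primed OT1 cells, so all share that receptor and earlier priming; the series text calls them memory cells. The unstimulated group (T0) stayed at rest, the stimulated group received beads carrying CD3 and CD28 antibodies for 2 h, and every culture ended with 10 min of cycloheximide, which arrests elongating ribosomes. There were 3 unstimulated and 3 stimulated RNA libraries, 3 unstimulated footprint libraries (replicates 1 to 3) and 2 stimulated ones (replicates 2 and 3). The labels do not tie replicates to separate animals or cultures, so p-values here measure the spread between these samples, which may be technical.

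NF-κB is a family of dimeric transcription factors that a resting T cell holds in the cytoplasm. The classical inhibitors IκBα (Nfkbia), IκBβ (Nfkbib) and IκBε (Nfkbie) bind the dimers through ankyrin repeats. When the antigen receptor and CD28 are engaged, the IκB kinase marks them for ubiquitination and proteasomal destruction and the dimers enter the nucleus. The atypical members IκBNS (Nfkbid), IκBζ (Nfkbiz) and Bcl3 also carry ankyrin repeats but act in the nucleus, where they bind NF-κB dimers on DNA and raise or lower transcription of selected targets. Several of these genes are NF-κB targets themselves, Nfkbia being the textbook negative feedback loop.

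The start regions of 4 of these genes are shown because NF-κB is known to act on such regions. Whether their sequences relate to the RNA changes below was not tested. Each is the RefSeq window from 250 bases before to 50 bases after an annotated start, on GRCm38.p6, written 5′ to 3′ on the gene's strand. Capitals mark matches on either strand to the κB consensus, the sequence family that NF-κB dimers bind. Nfkbia lies on the minus strand of chromosome 12 (window chr12:55492598-55492897), Nfkbib on the minus strand of chromosome 7 (chr7:28766595-28766894), Nfkbie on the plus strand of chromosome 17 (chr17:45555450-45555749) and the window of Nfkbid on the plus strand of chromosome 7 (chr7:30422156-30422455).
Nfkbia: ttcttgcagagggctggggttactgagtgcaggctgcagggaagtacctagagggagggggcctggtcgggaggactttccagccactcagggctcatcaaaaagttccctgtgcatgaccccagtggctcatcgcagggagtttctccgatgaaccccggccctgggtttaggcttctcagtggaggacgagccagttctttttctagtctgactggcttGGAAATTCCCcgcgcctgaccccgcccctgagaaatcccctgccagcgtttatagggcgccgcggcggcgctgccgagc
Nfkbib: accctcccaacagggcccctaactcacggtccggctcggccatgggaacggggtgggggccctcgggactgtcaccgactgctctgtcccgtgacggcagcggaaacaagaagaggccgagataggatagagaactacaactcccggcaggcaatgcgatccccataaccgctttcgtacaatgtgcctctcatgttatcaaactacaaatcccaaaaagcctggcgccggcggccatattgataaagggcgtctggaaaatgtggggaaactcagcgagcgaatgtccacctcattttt
Nfkbie: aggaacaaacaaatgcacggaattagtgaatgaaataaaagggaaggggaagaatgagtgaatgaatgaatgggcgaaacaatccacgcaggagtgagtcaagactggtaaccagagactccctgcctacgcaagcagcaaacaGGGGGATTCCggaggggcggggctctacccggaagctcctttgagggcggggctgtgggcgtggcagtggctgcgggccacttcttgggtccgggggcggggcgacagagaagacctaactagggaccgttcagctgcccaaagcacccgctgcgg
Nfkbid, start 2: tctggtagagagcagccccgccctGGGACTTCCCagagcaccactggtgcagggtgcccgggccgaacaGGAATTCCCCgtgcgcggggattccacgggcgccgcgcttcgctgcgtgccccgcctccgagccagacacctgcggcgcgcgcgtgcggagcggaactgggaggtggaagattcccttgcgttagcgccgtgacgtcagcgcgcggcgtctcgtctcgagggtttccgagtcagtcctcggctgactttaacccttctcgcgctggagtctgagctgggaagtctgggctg

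Counting bases from the start, Nfkbia held 1 match at -29 to -20, reading GGAAATTCCC on the printed strand. Nfkbid has 3 annotated start windows, of which only start 2 held matches: GGGACTTCCC at -226 to -217 and GGAATTCCCC at -181 to -172. Nfkbie held GGGGGATTCC, at -106 to -97, and Bcl3, whose window is not printed, held GGGAAGTCCC just after its start, from base 3 to 12. None was found in the window of Nfkbib. Of 32851 windows of this length in the mouse table, 8.46% held at least 1 match and 1.22% at least 2. A match describes letters only, and counts over coding sequence do not show which start of Nfkbid was used. No window was used for Nfkbiz.

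Depth differed sharply between the assays: 21658263 to 39346699 counts per RNA library and 11136 to 23641 per footprint library. RNA levels are given as CPM, counts per 1000000 after TMM scaling (trimmed mean of M values). The RNA libraries did not all look alike: the counts of unstimulated replicate 2 differed from replicates 1 and 3 with a chi-square per degree of freedom of 191 and 143, against 8.49 between replicates 1 and 3. Stimulated replicate 3 likewise differed from replicates 1 and 2 with 117 and 76.5, against 10.1 between those. Lars2, Gm10800, Gm10801 and Gm20594 together took 4.09 and 5.14% of counts in unstimulated replicates 1 and 3, 14.9% in unstimulated replicate 2, and 12.8 to 25% in the stimulated libraries. Genes under 10 CPM on average, 13463 in number, took 1.43 and 1.55% in unstimulated replicates 1 and 3 but 2.51% in replicate 2, and 1.72 to 2.97% after stimulation. The median log2 change over all 18886 genes tested was not 0 but 0.39, and it was 0.19 with RLE scaling, 0.22 with library totals, 0.30 when TMM left out these 4 genes, and 0.00 when only genes of at least 10 CPM were scaled and tested. Each RNA result below is given with that last scaling, and without unstimulated replicate 2 or stimulated replicate 3, where its call depends on them. Without the latter, 5254 genes were called in place of 1559. The 7 CD8 T cell markers summed to 2291 to 2593 CPM in unstimulated and 1652 to 2643 CPM in stimulated RNA. The 5 B cell markers summed to at most 11.2 CPM and the 8 myeloid and dendritic markers to at most 19.5 CPM, with 0 and 2 footprints in all. Ms4a1, Lyz2 and Csf1r, for example, had 0 footprints but group means of 0.381 to 2.27 CPM in RNA. The CD4 T cell list summed to 11.8 to 12.2 CPM unstimulated and 18.9 to 24.8 CPM stimulated, of which Cd40lg passed as higher (8.34 to 17.6 CPM, edgeR adjusted p = 0.00473), and the NK list to 37.8 to 38.3 and 48.6 to 67.6 CPM, most of it Eomes. No other marker passed in edgeR, but 3 of the 7 CD8 T cell markers were lower at an unadjusted p under 0.05, and 4 were called lower by DESeq2 and 4 with scaling on genes of at least 10 CPM. That last fit called 36.4% of all genes lower. DESeq2 called no CD4 T cell marker higher. The part of other cells in the results was not tested. In bulk RNA, a change in the number of cells expressing a gene and a change per cell cannot be told apart.

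In RNA, Nfkbid, Nfkbiz and Nfkbib rose after 2 h of stimulation by edgeR's quasi-likelihood test (Benjamini-Hochberg adjusted p under 0.05), while Nfkbia, Bcl3 and Nfkbie did not pass. These 3 of 6 genes compare with 3.58% of all genes tested that were called higher. In this edgeR fit none of the 6 was called lower, against 4.67% of all genes, and none was lower at an unadjusted p under 0.05. The median log2 change of the 6 was 0.85, beside 0.39 over all genes tested. DESeq2 also called none of the 6 lower, against 2466 of 21427 genes. It put Nfkbie at -0.68, however, with a DESeq2 unadjusted p of 0.0139 and adjusted p of 0.0589.

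**Figure D1:**
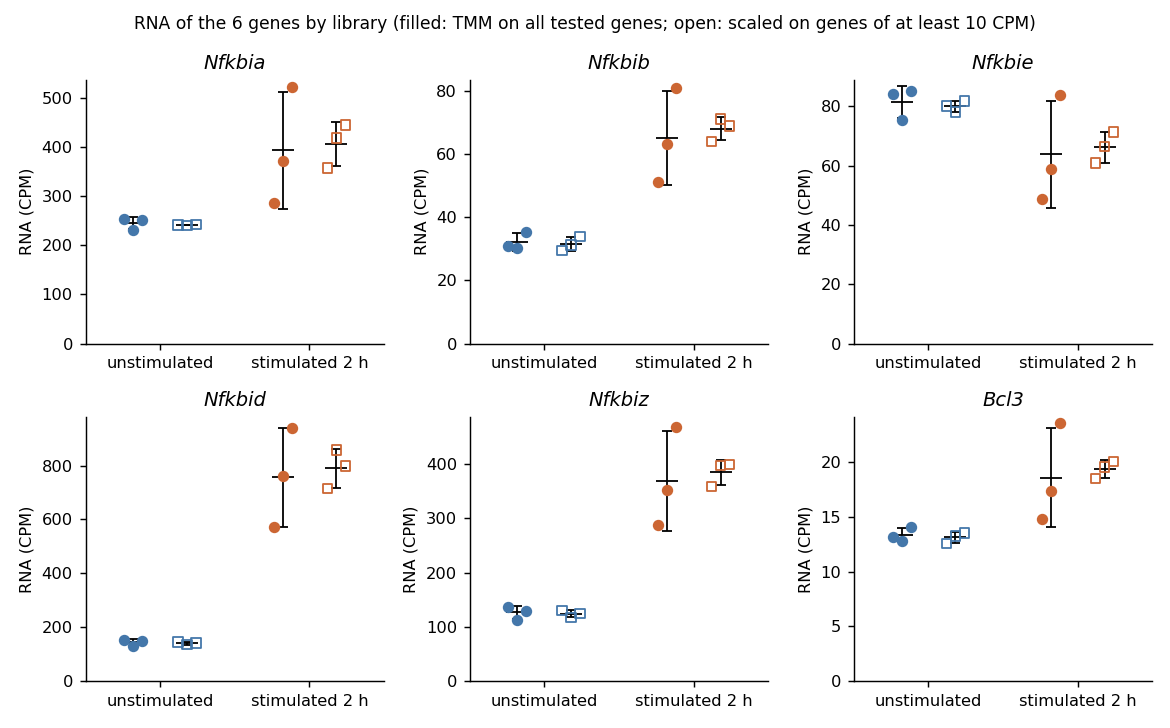
RNA level in CPM (linear axis from 0) of each gene in the 3 unstimulated (blue) and 3 stimulated (orange) libraries, with bars for mean and SD. Filled circles use TMM scaling on all tested genes and open squares scaling on genes of at least 10 CPM; the stimulated Nfkbid libraries lie between 572 and 938 CPM with the former, all above the unstimulated ones, and the stimulated libraries of every gene lie closer together with the latter.

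Among the classical inhibitors, Nfkbia (ENSMUSG00000021025, annotated gene span chr12:55489409-55492647 on GRCm38.p6, as for the genes below), whose protein is the main rapidly degraded and resynthesised brake on NF-κB, was at 254, 232 and 252 CPM in unstimulated replicates 1 to 3 and at 286, 372 and 523 CPM in stimulated replicates 1 to 3. The groups did not overlap, but the stimulated libraries differed more from each other than the lowest of them did from the unstimulated ones. The means were 246 ± 12 and 394 ± 120 CPM (SD, n = 3 each), a log2 change of 0.68 ± 0.23 (SE) that did not pass in edgeR (adjusted p = 0.106). With scaling on genes of at least 10 CPM the stimulated libraries were at 358, 419 and 445 CPM, the unstimulated ones at 241 to 243 CPM, and the change of 0.75 passed (edgeR adjusted p = 6.9e-06). In that fit, however, 36.9% of all genes were called higher and 36.4% lower. Without unstimulated replicate 2 the change was 0.36 (edgeR adjusted p = 0.0248), in a fit that called 67.8% of all genes. Without stimulated replicate 3 it was 0.41 and did not pass (edgeR adjusted p = 0.053).

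Nfkbib (ENSMUSG00000030595, chr7:28758251-28766644), the gene for IκBβ, an inhibitor that is degraded more slowly and persistently, was at 31.0, 30.1 and 35.3 CPM unstimulated and 51.2, 63.1 and 80.9 CPM stimulated. All stimulated libraries stood above all unstimulated ones. The means of 32.2 ± 2.78 and 65.1 ± 15 CPM (SD, n = 3 each) gave a 2.02-fold rise (log2 change 1.02 ± 0.19, edgeR adjusted p = 0.00696). This rise ranked 5513 of 18886 genes by size and lay 0.63 above the median change of all genes. It passed narrowly by DESeq2 (DESeq2 adjusted p = 0.0447) and with RLE scaling (edgeR adjusted p = 0.0498). The call was lost without stimulated replicate 2 (0.86, edgeR adjusted p = 0.100). It held without unstimulated replicate 2 (0.70, edgeR adjusted p = 2.5e-05), in a fit that called 67.8% of all genes. The annotated span of Nfkbib overlaps that of Ccer2, and the strand used in counting is not given in the sources used here, but Ccer2 stayed between 0.378 and 1.29 CPM in the 6 RNA libraries.

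Nfkbie (ENSMUSG00000023947, chr17:45555700-45563169), the gene for IκBε, an inhibitor known to act on dimers with Rel and Rela, did not follow the other inhibitors. It was at 84.1, 75.3 and 85.1 CPM unstimulated and at 48.7, 59.0 and 83.8 CPM stimulated. Stimulated replicates 1 and 2 lay below every unstimulated library and replicate 3 within their range. The log2 change of -0.35 ± 0.21 did not pass in edgeR (adjusted p = 0.325), and it lay 0.74 below the median change of all genes. Its sign was negative in each of the 14 alternatives that gave it a value, and it passed as lower with scaling on genes of at least 10 CPM (-0.27, edgeR adjusted p = 0.00156), with library totals (-0.54, edgeR adjusted p = 0.0108), without unstimulated replicate 2 (-0.68, edgeR adjusted p = 6.5e-05) and without stimulated replicate 3 (-0.61, edgeR adjusted p = 0.00384). In that order, these fits called 3090 of 8494, 4219 of 18886, 6173 of 19219 and 4271 of 19468 genes lower.

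Among the atypical members, Nfkbid (ENSMUSG00000036931, chr7:30421731-30428749) changed most. IκBNS, its product, is known as a nuclear regulator that T cells need for full cytokine production. The RNA was at 152, 130 and 148 CPM in unstimulated replicates 1 to 3 and at 572, 761 and 938 CPM in stimulated replicates 1 to 3. The lowest stimulated library was far above the highest unstimulated one. The means of 143 ± 11.6 and 757 ± 183 CPM (SD, n = 3 each) gave a 5.29-fold rise (log2 change 2.40 ± 0.23, edgeR adjusted p = 1.1e-04), which ranked 91 of 18886 genes by size of rise. With each RNA library left out in turn the log2 change stayed between 2.07 and 2.40, and the call held in each of these fits.

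Nfkbiz (ENSMUSG00000035356, chr16:55811375-55838954), which encodes IκBζ, an inducible nuclear cofactor of NF-κB, was at 136, 113 and 130 CPM unstimulated and 287, 353 and 469 CPM stimulated, with no overlap. The means of 126 ± 12.2 and 370 ± 92.1 CPM (SD, n = 3 each) gave a 2.93-fold rise (log2 change 1.55 ± 0.22, edgeR adjusted p = 0.00181). The change was 1.20 without unstimulated replicate 2, and the call held with each library left out.

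Bcl3 (ENSMUSG00000053175, chr7:19808462-19822824), a nuclear partner of the homodimers formed by the Nfkb1 and Nfkb2 products, had few counts. It was at 13.2, 12.8 and 14.1 CPM unstimulated and at 14.8, 17.3 and 23.6 CPM stimulated. The groups did not overlap, yet stimulated replicate 1 stood close to the unstimulated libraries. The log2 change of 0.48 ± 0.17 did not pass in edgeR (adjusted p = 0.127), and it lay only 0.08 above the median change of all genes. Relative to that median it stood at -0.11 by DESeq2, -0.12 without a filter on low counts, -0.08 without stimulated replicate 3 and -0.05 without unstimulated replicate 2. It passed as higher with scaling on genes of at least 10 CPM (0.57, edgeR adjusted p = 4.5e-05) and with a minimum mean of 50 counts (0.53, edgeR adjusted p = 0.00276). In that order, these fits called 3138 of 8494 and 2287 of 12611 genes higher. Without unstimulated replicate 2 Bcl3 was at 0.18 (edgeR adjusted p = 0.119). Its annotated span overlaps that of the long noncoding RNA Gm16174, which was not analysed here.

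Ratios of counts within a library do not depend on how libraries are scaled, and they showed how the 6 RNAs moved against each other. Levels of different genes are not ranked, since coding lengths were not used here, but length cancels from a change in a ratio. Relative to Nfkbia, the log2 ratio of Nfkbid was -0.74, -0.84 and -0.77 in the unstimulated libraries and between 0.84 and 1.03 in the stimulated ones. The groups were far apart, a 3.35-fold shift. The Nfkbiz ratio went from -0.97 ± 0.07 to -0.08 ± 0.08 (SD, n = 3 each), a 1.85-fold shift, and the Nfkbib ratio from -2.94 ± 0.10 to -2.58 ± 0.11. The ratio of Nfkbie went the other way, from -1.59, -1.63 and -1.57 to -2.56, -2.66 and -2.64, a 2.03-fold drop against Nfkbia with no overlap. Bcl3 moved least, from -4.20 ± 0.05 to -4.39 ± 0.10. Nfkbid made up 21.9 to 22.6% of the RNA counts of the 6 genes in unstimulated and 44.3 to 46.8% in stimulated libraries, while Nfkbia made up 37.9 to 39.2% and 22.7 to 24.7%. These ratios are descriptions without a test.

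**Figure D2:**
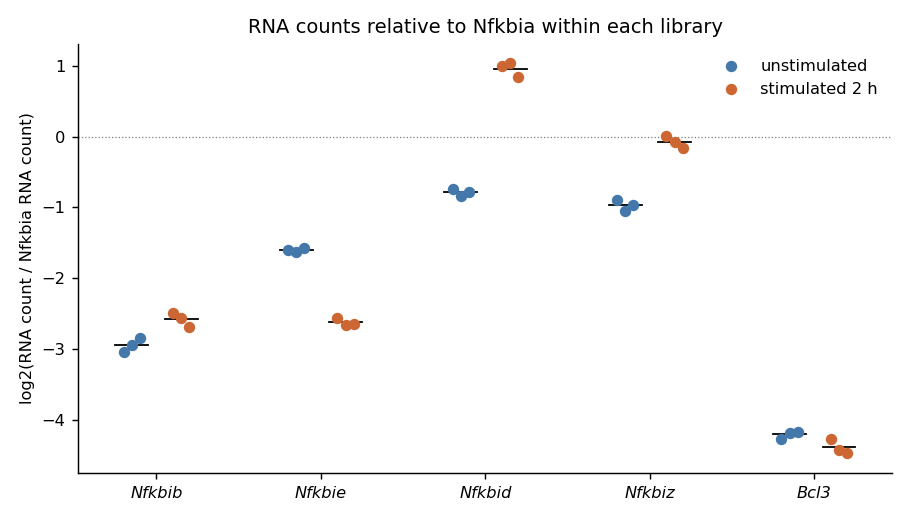
Log2 ratio of each gene's RNA count to the Nfkbia count of the same library, 3 unstimulated (blue) and 3 stimulated (orange) libraries per gene, with a line at each mean. The ratios of Nfkbid and Nfkbiz rise and that of Nfkbie falls by 1.02.

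The genes whose pattern over the 6 RNA libraries was most like each member's were found among 8492 genes of at least 10 CPM, by the root mean square difference of mean-centred log2 CPM. For Nfkbid they were Tnfsf14 (difference 0.04), from 74.9 to 411 CPM, and Bcl2l1 (0.05), from 47.0 to 239 CPM. Tnfsf14 encodes the TNF family ligand LIGHT, and Bcl2l1, also among the target genes below, the survival protein Bcl-xL. For Nfkbiz they were Serpina3g (0.03), a serine protease inhibitor gene, and Slamf1 (0.04), a lymphocyte surface receptor gene, which went from 131 to 374 and from 133 to 410 CPM. Nfkbie was closest to Btg2 (0.01), an antiproliferative gene, and to the immunoproteasome gene Psmb9 (0.01), at 256 to 199 and 118 to 93.5 CPM. Rilpl2 and Dph2 were closest to Nfkbia (0.03 each), Rpusd2 and Hemk1 to Nfkbib (0.04 each), and the kinase gene Pim2 and Fam206a to Bcl3 (0.02 each). Within the 6 genes the most alike pair was Nfkbia and Bcl3 (0.12) and the least alike Nfkbie and Nfkbid (1.38). With 2 conditions and 6 libraries, likeness rests largely on the size of the change and on each library's scaling.

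Footprints showed which of these mRNAs were found on ribosomes in measurable numbers. Only Nfkbia and Nfkbid passed the filter on low counts, and Nfkbid passed through its stimulated libraries, so that it could enter the test only by being high there. Nfkbia gave 8, 15 and 13 footprints in unstimulated replicates 1 to 3 and 23 and 25 in stimulated replicates 2 and 3. In scaled units these were 722, 1034 and 856 CPM against 1080 and 1067 CPM. The stimulated libraries lay just above the unstimulated ones, and the log2 change of 0.23 ± 0.49 did not pass in edgeR (adjusted p = 0.822). At this depth a change of the size seen in Nfkbia RNA was not detectable.

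Nfkbid footprints numbered 3, 1 and 1 in the unstimulated libraries and 28 and 32 in the stimulated ones. This was 271, 68.9 and 65.9 CPM against 1314 and 1366 CPM, with a wide gap between the groups. The log2 change was 3.30 ± 0.67 (edgeR adjusted p = 3.5e-05), in a test of 256 genes, of which 5.47% were called higher. As Nfkbid entered this test only through its stimulated libraries, its place among these genes is not read as a result. Summed over libraries, 5 unstimulated footprints (exact Poisson 95% interval 1.62 to 11.7, counting error only) stood against 60 stimulated ones (45.8 to 77.2). The call was lost without stimulated replicate 2 (3.36, edgeR adjusted p = 0.0671) or replicate 3 (3.26, edgeR adjusted p = 0.159). In those fits the stimulated group is 1 library, assumed to vary like the others.

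**Figure D3:**
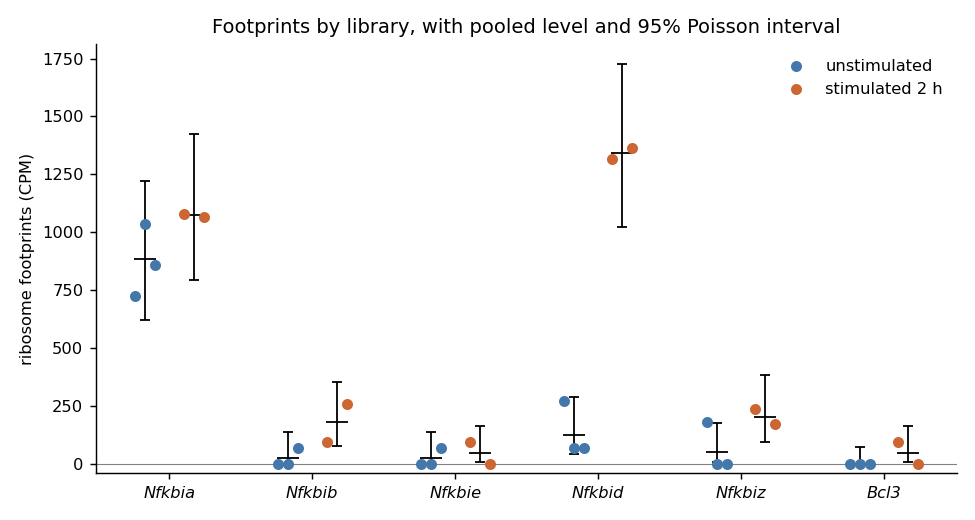
Ribosome footprints in CPM (linear axis) per library, 3 unstimulated (blue) and 2 stimulated (orange), with the pooled level of each group and its exact Poisson 95% interval in black (upper limit of 3 counts where none was seen). Nfkbia lies between 722 and 1080 CPM in both groups, Nfkbid is at 1314 and 1366 CPM only after stimulation, and the other 4 genes rest on 9 footprints or fewer per group.

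The other 4 genes were too thinly covered for the test. Nfkbiz had 2, 0 and 0 footprints unstimulated and 5 and 4 stimulated, and Nfkbib 0, 0 and 1 against 2 and 6. Their pooled intervals were 5.94 to 177 against 92.0 to 382 CPM for Nfkbiz and 0.621 to 137 against 77.2 to 352 CPM for Nfkbib, which overlap. Nfkbie had 1 footprint in all unstimulated libraries and 2 in the stimulated ones. Bcl3 had none in the unstimulated libraries, where a count of 0 allows up to 3 counts, or 73.6 CPM over the group, and 2 in stimulated replicate 2.

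Setting footprints against RNA shows how translation of each mRNA compared with that of other mRNAs. For each gene the number of footprints that its share of RNA counts would give was computed, leaving the 4 dominant RNA genes out of both totals. Nfkbia had 36 unstimulated footprints where its RNA share gives 11.6, a ratio of 3.11 (95% interval 2.18 to 4.30), and 48 stimulated ones where it gives 20.2, a ratio of 2.38 (1.75 to 3.15). Among genes whose share gives at least 5 footprints, the median ratio was 0.658 unstimulated (2121 genes) and 0.708 stimulated (2291 genes). Of these genes 97.8% had a lower ratio than Nfkbia before stimulation and 93.4% after it. Nfkbid had a ratio of 0.743 (0.241 to 1.73) unstimulated and 1.53 (1.17 to 1.97) stimulated, with 60 footprints seen where its share gives 39.2.

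Nfkbiz, whose RNA share gives 19.1 stimulated footprints, showed 9, a ratio of 0.471 (0.216 to 0.895). The interval holds the median of 0.708, and 37.2% of genes had a lower ratio, but it lies below the interval of Nfkbid. For the remaining genes the intervals were wide: 1.02 to 4.68 for Nfkbib and 0.0738 to 2.20 for Nfkbie after stimulation, and 0.252 to 7.52 for Bcl3. These intervals cover counting error only and not the spread between libraries.

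**Figure D4:**
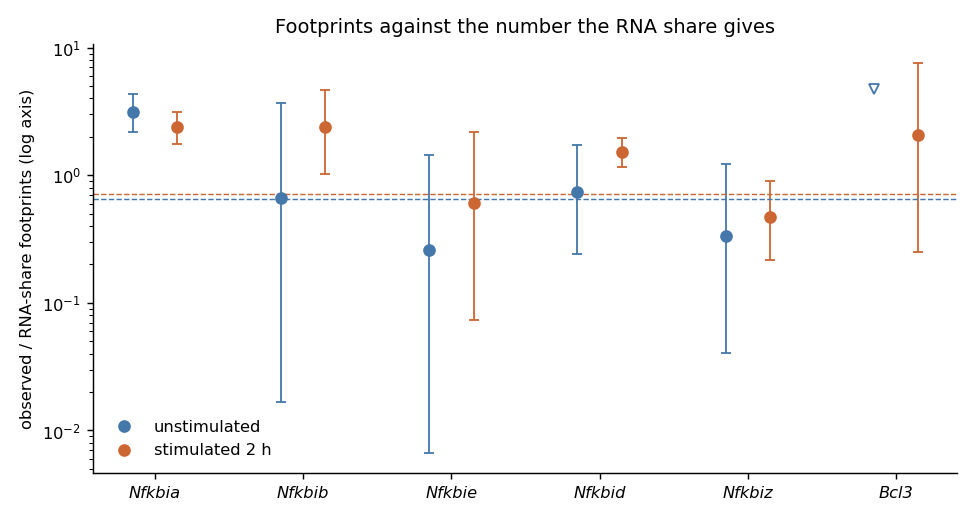
Observed footprints divided by the number the gene's RNA share gives (log axis), pooled over libraries, unstimulated (blue) and stimulated (orange), with exact Poisson 95% intervals; the open triangle is the upper limit for Bcl3, which had no unstimulated footprint. Dashed lines are the medians over genes with at least 5 footprints by RNA share (0.658 and 0.708); Nfkbia lies above them in both groups.

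A change in translational efficiency is a change in footprints beyond that in RNA, and edgeR tested it with an interaction term over both assays. The log2 change in efficiency was -0.52 ± 0.34 for Nfkbia (edgeR adjusted p = 0.435) and 0.91 ± 0.65 for Nfkbid (edgeR adjusted p = 0.467). Neither of the 2 genes tested passed, also not at an unadjusted p under 0.05, against 3.14% of 255 genes called. DESeq2 gave adjusted p = 0.702 and 0.457. Nfkbid entered the edgeR test, too, only by being high in its stimulated footprint libraries. Its place among the genes tested there is therefore not read as a result. The estimate for Nfkbid moved between 0.48 and 1.74 with single footprint libraries left out, the extremes without unstimulated replicate 3 and without unstimulated replicate 1. The footprint rise of Nfkbid was not distinguishable from its RNA rise at this depth.

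Around these inhibitors, 65 other genes of the NF-κB pathway and its targets were all tested in RNA, of which 18 were called higher and 2 lower (27.7 and 3.08%), with a median log2 change of 0.26. Over all genes tested, 3.58% were called higher and 4.67% lower, with a median of 0.39. All but 2 of the higher genes were target genes. Of 20 textbook targets, 16 rose and none fell (DESeq2 also called 16 higher and 0 lower; 0 were lower at an unadjusted p under 0.05). Their median log2 change was 1.96. As the lists were chosen with earlier results of these data known, these counts are a description and not a test. The growth factor genes Il2 (5.89) and Csf2 (5.88) rose most among them, above Nfkbid.

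None of the 5 genes for NF-κB subunits passed in edgeR, although 3 were higher at an unadjusted p under 0.05, and DESeq2 called 0. Their log2 changes ran from 0.41 (Rela) to 0.74 (Nfkb1), beside the median of 0.39. Nfkb1, the one with the highest CPM, went from 510 ± 35.2 to 853 ± 180 CPM (SD, n = 3 each, edgeR adjusted p = 0.0542). All 5 were called higher with scaling on genes of at least 10 CPM, as were 36.9% of all genes in that fit.

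How many genes of the machinery that destroys the inhibitors, and of other feedback inhibitors, passed differed between the fits. Among 11 genes of the IκB kinase complex and its activating kinases, 1 fell: Ikbke, a kinase related to the IκB kinases, from 101 ± 4.09 to 62.0 ± 14.7 CPM (log2 change -0.71, edgeR adjusted p = 0.0459). In the adaptor group of the antigen receptor, Traf6, a ubiquitin ligase, rose from 140 ± 7.24 to 279 ± 64.1 CPM (edgeR adjusted p = 0.0121). Of 14 deubiquitinases and other feedback inhibitors, 1 rose, Tnip2 (0.83, edgeR adjusted p = 0.0147), an A20-binding protein gene. Each of these 3 calls was lost without unstimulated replicate 3 and without stimulated replicate 1 or 2, and that of Ikbke also without unstimulated replicate 1, with edgeR adjusted p of up to 0.223. None of 9 genes of IκB ubiquitination and turnover passed in edgeR (1 lower at an unadjusted p under 0.05, 1 lower by DESeq2), Usp15, the one of highest CPM, being at -0.27, and neither did the 2 κB-Ras genes (0 and 0), with Nkiras2 at -0.22. With scaling on genes of at least 10 CPM, 5 of the 11 kinase genes were called higher and 4 lower, 4 and 2 of the 9 turnover genes, and 9 and 3 of the 14 feedback inhibitors. That fit called 36.9% of all genes higher and 36.4% lower. DESeq2 called 0 higher and 3 lower among the kinase genes, and 0 and 3 among the feedback inhibitors, so that Tnip2 did not pass there. Over all 21427 genes DESeq2 called 363 higher and 2466 lower.

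**Figure D5:**
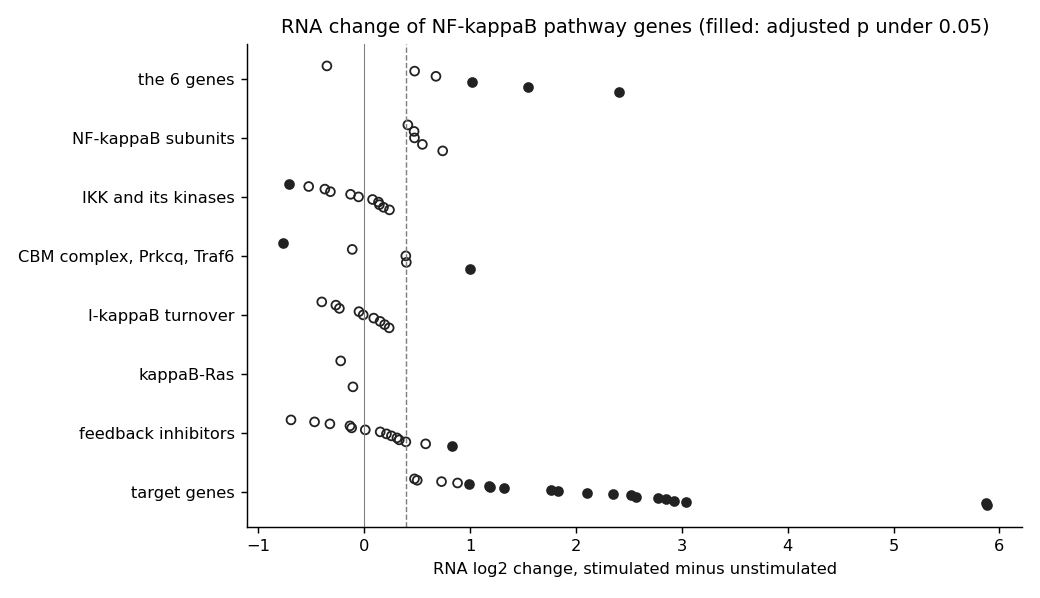
RNA log2 change (stimulated minus unstimulated) of the 6 genes and of the 7 pathway groups, 1 circle per gene, filled where the edgeR adjusted p was under 0.05; the solid line is 0 and the dashed line the median of all genes tested (0.39). The textbook target genes lie furthest to the right, Nfkbid among them in size, and Nfkbie lies left of 0.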

How the data were processed

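The authors deposited raw counts per gene over coding sequences. The submitters' processing notes name STAR 2.5 and mm10 (GRCm38); counting tool, annotation release, strand use and read filters are not given in the sources used here. The series table equals the single-library files. Ensembl identifiers were matched to symbols by table (21838 of 21957), and positions and start windows come from RefSeq on GRCm38.p6; 5 of the 6 genes had a window.

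Each assay was tested with edgeR 4.0.16 in R 4.3.3 (quasi-likelihood F test, TMM, filterByExpr with minimum count 10 and total 15), two-sided, adjusted by Benjamini-Hochberg over all genes tested, threshold 0.05. Efficiency was the assay by stimulation interaction over all 11 libraries. Standard errors are the log2 change divided by the square root of F. Log2 CPM used a prior count of 2. Scripts were tested on simulated data. Alternatives were DESeq2 1.42.0, other scalings and filters, a replicate block, thinning and leaving out each library.

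The 6 genes, the lists and the settings were chosen with earlier results of these data known. Named list genes are the 2 largest rises and falls that passed in each group, or otherwise the most abundant; for each of the 6 genes the 2 nearest patterns are named. Rela, Ccer2 and the 4 genes with a large share of RNA counts were named outside this rule. Some items of the lists are not reported here.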

Additional observations from a re-analysis of the deposited data

How the results depend on the processing

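Of 140 values of the 6 genes under alternatives, none changed sign, 127 kept their side of the threshold, 10 came to pass and 3 no longer passed. Nfkbia in RNA came to pass with scaling on genes of at least 10 CPM (0.75), library totals (0.48), a minimum mean of 50 counts (0.73) and without unstimulated replicate 2 (0.36). It did not pass in the other 5 leave-outs, and all 6 gave 0.36 to 0.65. Nfkbie came to pass as lower at -0.27 and -0.54 with the first and second of these, without unstimulated replicate 2 (-0.68) and without stimulated replicate 3 (-0.61). It did not pass in the other 4 leave-outs, and all 6 gave -0.68 to -0.38. Bcl3 did so at 0.57 and 0.53 with the first of these and the minimum mean. Nfkbib ranged from 0.70 to 1.02 and Nfkbid footprints from 2.87 to 4.12 with libraries left out. In RNA 677 genes were called higher and 882 lower. These were 363 and 2466 with DESeq2, 3138 and 3090 for genes of at least 10 CPM, 2287 and 2645 with a minimum mean of 50 counts, 334 and 1364 with RLE scaling, and 13 and 10 after thinning to footprint depth, where none of the 6 genes could be tested. With library totals 4219 were lower, and with no filter 410 were higher. Leaving out libraries gave 283 to 6851 higher and 301 to 6173 lower. Footprint calls (14 higher, 10 lower) were 7 and 4 with DESeq2, 7 higher with the minimum mean of 50 counts and 1 lower with no filter, and 4 to 21 and 7 to 16 with libraries left out. Efficiency calls (4 and 4) were 8 higher with DESeq2, 2 higher with the minimum mean, 1 higher with no filter, 1 lower with library totals, and 0 to 5 and 0 to 5 with libraries left out. With the replicate block, 1232 genes were called higher in RNA and Nfkbid was at 2.38. The labels share only numbers: the deviations of same-numbered RNA libraries correlated with r of -0.79, 0.64 and 0.73, the first pair in opposite directions. Not every library correlated best with its own number, so pairing was not assumed. Counts changed with what was scaled and tested, and the cause was not tested. The planned comparison of coding lengths was not run, and none of the 6 genes reached the minimum mean of 50 counts in footprints. The calls rest on 3 libraries a group in RNA, and on 60 or fewer footprints a group.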
